A study of Mus musculus with 12 samples.

Results

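The proteins that tie the plasma membrane to the actin cortex were followed here through 10 genes. They are Nf2, which encodes merlin, the ezrin, radixin and moesin genes (Ezr, Rdx and Msn, together ERM), the scaffold genes Slc9a3r1 and Slc9a3r2, the membrane receptor gene Cd44, and 3 genes tied to merlin or to schwannomatosis, Smarcb1, Lztr1 and Dcaf1. Their rows were taken by gene symbol, from a list drawn up with earlier results of these data known. All 10 were found among the 49315 genes of the count table, and all 10 passed the filter on low counts that left 18295 genes for testing. Dorsal root ganglia (DRG), the clusters of sensory neurons beside the spinal cord, were taken from mice aged 10 months, 8 ganglia pooled per mouse and 1 bulk RNA sequencing library per mouse. The 6 Nf2 mice were Postn-Cre(+);Nf2 flox/flox. The 6 DKO (double knockout) mice carried, in addition, Fak1 flox/flox. In either genotype the labels give 3 mice as male and 3 as female. All 12 mice therefore carried the Cre transgene and the floxed Nf2 alleles, and the genotypes differed in the floxed alleles of Fak, the focal adhesion kinase gene annotated as Ptk2. Cre was driven by Postn (periostin) sequences, which the study used to delete genes in the Schwann cell lineage, so the bulk counts pool recombined cells with other cells of the ganglion, neurons among them. No mouse with intact Nf2 was analysed here.

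Merlin and the ERM proteins share a FERM domain, a fold that binds membrane lipids and the tails of membrane proteins. In ERM proteins the other end of the chain binds actin filaments, and phosphorylation opens the molecule so that both ends can act at once. Merlin lacks the actin-binding end of its relatives and is known as a tumor suppressor of Schwann cells that restrains growth at cell contacts, partly through the Hippo pathway. Loss of merlin causes NF2-related schwannomatosis.

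The libraries held 21129191 to 41250329 counts. Defining genes of sensory neurons (summed level of 15 genes 8003 to 9970 CPM, counts scaled to the library total) and Schwann cells (14 genes, 11158 to 15548 CPM) were abundant in every mouse. Ptk2 had 65.8 to 75.5 CPM in Nf2 mice (median 70.1) and 46.5 to 76.0 in DKO mice (median 66.8), and its log2 fold change of -0.15 ± 0.10 (SE) did not pass the test (adjusted p = 0.529). The counts are summed per gene and pool recombined cells with others, so this value does not measure how far Fak was deleted. Mouse 702, labelled male, had 496 CPM of Xist and 0.525 CPM of Ddx3y, whereas the 6 mice labelled female had 428 to 637 CPM of Xist and the other 5 labelled male had 0.364 to 6.17. The library labelled male mouse 702 thus went against its label, and whether its genotype label holds cannot be told from these genes. Results by sex are given with and without it, and without it 0 of 10 members passed the genotype test (0.616% of all genes did). The mitochondrial share of counts was 1.99% to 3.15% in 10 mice, 4.45% in Nf2 mouse 649 and 5.60% in DKO mouse 887. Skeletal muscle genes were listed to mark tissue dissected along with the ganglia. Over 14 genes they summed to 54.3 to 1259 CPM in Nf2 mice and 65.8 to 426 CPM in DKO mice. None of these genes was at 0 in any mouse. Among them Pvalb had at least 38.8 CPM in every mouse, whereas the lowest values of the others were 0.128 to 2.14 CPM. The low end of the sums is therefore mostly Pvalb. Which cells the Pvalb counts came from was not tested, so the low sums cannot be read as muscle alone.

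The Nf2 flox2 allele has recombination sites around exon 2, and the sequence of that exon is shown because it is the stretch that Cre removes. In GENCODE M21 it lies at chr11:4820368-4820493 of GRCm38, on the minus strand, within the coding sequence. It is the second of 16 exons of transcript Nf2-205 and holds 126 bases, or 42 codons with 0 bases left over. Below, exon 2 is in capitals, with 15 bases of the neighbouring exons in lower case.
Nf2 exon 2: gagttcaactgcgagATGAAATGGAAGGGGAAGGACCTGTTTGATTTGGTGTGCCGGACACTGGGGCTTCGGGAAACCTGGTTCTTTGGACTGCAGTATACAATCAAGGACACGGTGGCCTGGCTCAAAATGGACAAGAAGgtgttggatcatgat
Exon 2 makes up 2.67% of the 4720 bases of this transcript and 1.85% of the 6825 bases in all annotated Nf2 exons. The deposited counts are summed per gene, so they do not separate transcripts with and without exon 2.

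The coding ends of the ERM genes are shown because they hold the actin-binding part that sets these proteins apart from merlin. The last 105 bases of each coding sequence, stop codon included, are given 5′ to 3′, and capitals mark the 65 positions (61.9%) at which all 3 genes have the same base.
Ezr: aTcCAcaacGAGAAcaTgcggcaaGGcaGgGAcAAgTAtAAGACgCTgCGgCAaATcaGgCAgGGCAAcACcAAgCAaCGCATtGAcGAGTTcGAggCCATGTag
Rdx: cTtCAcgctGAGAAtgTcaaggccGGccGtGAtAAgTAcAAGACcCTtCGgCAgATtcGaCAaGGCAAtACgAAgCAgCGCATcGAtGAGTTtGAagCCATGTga
Msn: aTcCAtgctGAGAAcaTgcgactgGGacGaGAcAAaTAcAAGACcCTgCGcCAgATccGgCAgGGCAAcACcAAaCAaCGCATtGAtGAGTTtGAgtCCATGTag
In this window Ezr and Msn were identical at 81.0% of positions, Rdx and Msn at 71.4%, and Ezr and Rdx at 68.6%. Over the whole aligned coding sequences, identity was 73.2% between Ezr and Msn, 71.5% between Rdx and Msn and 69.9% between Ezr and Rdx. Merlin stood farther off, at 57.2% to 59.8% from each of them, and Slc9a3r1 and Slc9a3r2 were 61.4% identical. The longest run of identical bases between any pair of the 4 FERM genes was 32, between Ezr and Msn. No stretch of 50 bases was shared among the 4 FERM genes or between the 2 scaffold genes. Between 0% and 2.33% of the 50-base stretches of each member occurred in another gene, the most in Smarcb1.

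Msn had the highest level of the 10 members per length of exon. Levels were compared between genes as CPM per kilobase of annotated exon. Msn had 64.0 ± 2.97 (mean ± SD over 12 mice), and exceeded Rdx (44.5 ± 4.93) in 12 of 12 mice with ranges that did not overlap. Rdx, Slc9a3r2 (43.2 ± 2.03), Slc9a3r1 (35.3 ± 6.22) and Lztr1 (31.1 ± 1.78) followed, and the ranges of neighbours in this order overlapped. Lztr1 stood above Cd44 (21.3 ± 2.93) without overlap. Cd44, Nf2 (18.1 ± 1.81) and Ezr (17.5 ± 1.62) overlapped in range, Nf2 exceeding Ezr in 9 of 12 mice. Ezr stood clear of Smarcb1 (6.04 ± 0.779), which overlapped with Dcaf1 (5.15 ± 0.224). The lengths used move this order. Per kilobase of the principal coding transcript of each gene in the annotation, the longest where there were several, Msn had 105 and Dcaf1 8.11, again the highest and the lowest, whereas Smarcb1, whose transcript of 1660 bases is far shorter than its annotated exon, had 28.9 and lay above Nf2 (26.1), Cd44 (25.7) and Ezr (18.2). Lztr1 had 55.9 by that measure and lay above Slc9a3r2 (53.5) and Rdx (47.1). Per kilobase of annotated exon, the order of means was the same in both genotypes, except that Nf2 exceeded Ezr in Nf2 mice (18.8 and 17.1) and not in DKO mice (17.3 and 17.9). The spread over all 12 mice was narrowest for Dcaf1, with a coefficient of variation of 4.35% in CPM, and widest for Slc9a3r1, with 17.6%.

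**Figure D1:**
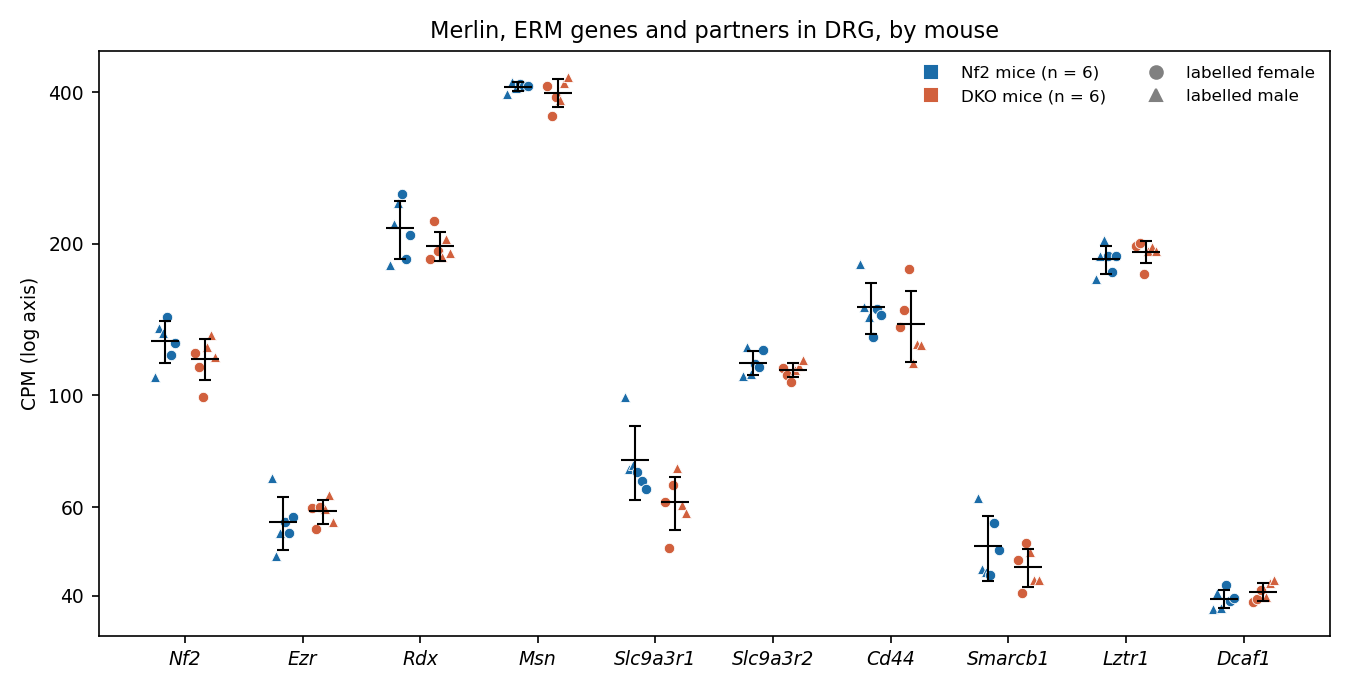
Level of each of the 10 genes in each mouse, in CPM on a log axis. Blue marks the 6 Nf2 mice and orange the 6 DKO mice, circles mice labelled female and triangles mice labelled male, and bars give the mean ± SD. The genotypes overlap for every gene, and Nf2 mouse 649 sits alone at 99.4 CPM of Slc9a3r1.

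The comparison of DKO with Nf2 mice asked whether removing Fak on top of Nf2 changed the transcript levels of these linkers. No member passed the test, and the 95% intervals of all but Slc9a3r1 included 0 by edgeR. By edgeR's quasi-likelihood test with Benjamini-Hochberg adjustment over all 18295 genes, 0 of the 10 members passed an adjusted p of 0.05, against 172 genes (0.94%) in the whole table. DESeq2 also called 0 of the 10 members (4.54% of all genes), and limma voom with sample quality weights called 0 (2.85% of all genes). At an unadjusted p under 0.05, edgeR listed 1 member, Slc9a3r1, beside 14.9% of all genes. DESeq2 listed the same 1 (16.1% of all genes), and limma voom listed 3, Rdx, Nf2 and Slc9a3r1 (18.5%). For no member were the genotypes free of overlap in CPM, which held for 1.95% of all genes. Fold changes were below 0 for 7 members and above 0 for 3 (49.0% of all genes were below 0), with a median log2 fold change of -0.10 over the members and 0.0047 over all genes. The median size of the change, regardless of direction, was 0.097 for members and 0.119 for all genes.

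**Figure D2:**
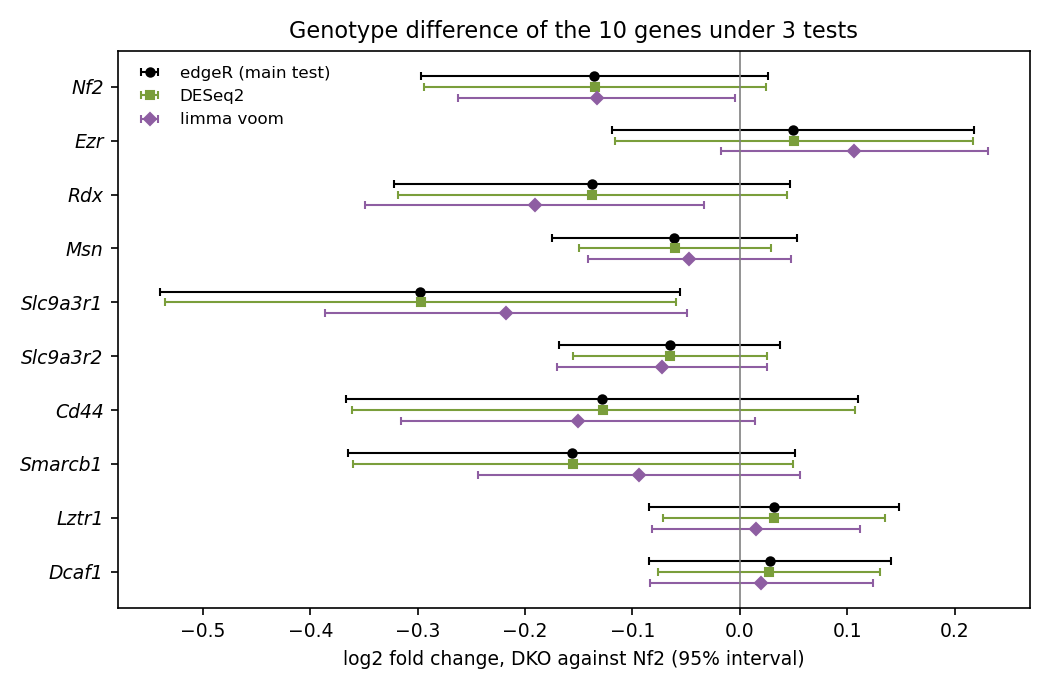
Log2 fold change of DKO against Nf2 mice for each of the 10 genes, with 95% intervals, under edgeR (black circles), DESeq2 (green squares) and limma voom (purple diamonds). The interval of Slc9a3r1 lies below 0 under all 3 tests, those of Nf2 and Rdx under limma voom alone, and no gene passes the adjusted threshold.

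Nf2 itself (ENSMUSG00000009073, GRCm38 chromosome 11, 4765845 to 4849536, minus strand) was readily detected in both genotypes. It ranged from 109 to 143 CPM in Nf2 mice (median 130.4) and from 99.2 to 132 CPM in DKO mice (median 120.3). The ranges overlapped over most of their length, and 5 of 6 DKO mice were below the mean of Nf2 mice. Mean levels were 128 ± 12.3 and 118 ± 11.2 CPM (SD, n = 6 each). DKO against Nf2 mice, the log2 fold change was -0.14 ± 0.08 (SE), with a 95% interval of -0.30 to 0.03 and an adjusted p of 0.435. Because every mouse carried the floxed Nf2 alleles, this comparison does not measure how much Nf2 transcript the deletion removed.

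Among the ERM genes, moesin was the steadiest. Msn (ENSMUSG00000031207, chromosome X, 96096042 to 96168552, plus strand), the dominant ERM gene of leukocytes, had 396 to 419 CPM in Nf2 mice (median 412) and 359 to 428 CPM in DKO mice (median 401). The DKO mice spread around the narrow band of the Nf2 mice, with 3 below and 3 above its mean. Its log2 fold change was -0.06 ± 0.05, with an interval of -0.17 to 0.05 (adjusted p = 0.650). In terms of fold, the interval ran from 0.886 to 1.04.

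Rdx (ENSMUSG00000032050, chromosome 9, 52047173 to 52088735, plus strand) encodes radixin, and its level varied more than that of Msn within genotypes. It ranged from 182 to 252 CPM in Nf2 mice (median 214) and from 187 to 222 CPM in DKO mice (median 193), and the DKO range lay wholly inside that of the Nf2 mice. Rdx had a log2 fold change of -0.14 ± 0.09, with an interval of -0.32 to 0.05 (adjusted p = 0.494). Ezr (ENSMUSG00000052397, chromosome 17, 6738041 to 6782784, minus strand) encodes ezrin, best known from the microvilli of epithelial cells. It had 48.0 to 68.5 CPM in Nf2 mice (median 54.7) and 54.3 to 63.4 CPM in DKO mice (median 59.5). The Nf2 range again enclosed the DKO range, with mouse 649 at its top. Ezr had a log2 fold change of 0.05 ± 0.08, with an interval of -0.12 to 0.22 (adjusted p = 0.819). Ezr overlaps Sytl3 on the opposite strand, and the strand setting of the counting is not given in the sources used here.

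The ERM pool was described by the share of each member. Per length of exon, moesin made up 50.7% ± 2.07 of the summed ERM level in Nf2 mice and 51.0% ± 2.34 in DKO mice (mean ± SD, n = 6 each). Radixin made up 36.0% ± 3.13 and 34.5% ± 2.53, and ezrin 13.3% ± 1.96 and 14.5% ± 0.710. For moesin and radixin the difference was smaller than the SD of either genotype. For ezrin it exceeded the SD among DKO mice, and Nf2 mouse 649 lay above the other 5 Nf2 mice (11.4% to 13.7%). Without that mouse, ezrin made up 12.6% ± 0.914 in Nf2 mice, 1.86 percentage points below DKO mice. The order of moesin, radixin and ezrin held in each of the 12 mice, with moesin between 46.9% and 53.7%. Set against the summed ERM level, merlin's transcript stood at 14.6% ± 0.913 in Nf2 mice and 14.0% ± 1.18 in DKO mice. The shares depend on the lengths used. With the longest transcript in place of all annotated exon, moesin made up 61.6% in Nf2 mice and 61.9% in DKO mice.

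**Figure D3:**
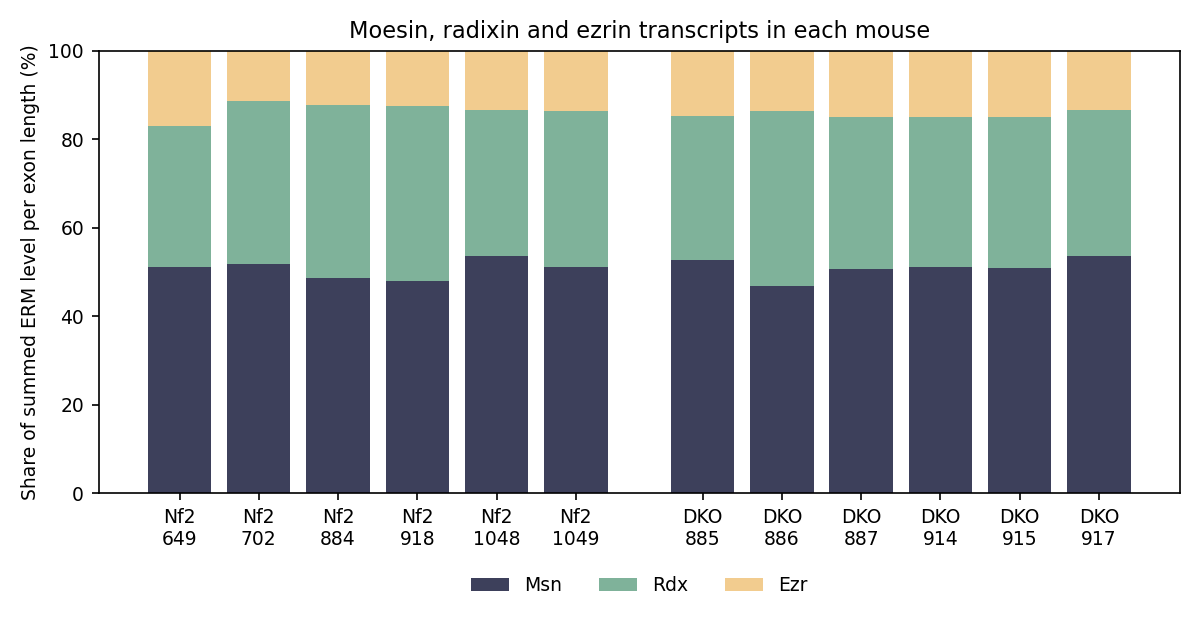
Share of moesin (dark), radixin (green) and ezrin (yellow) in the summed ERM level per exon length, in percent, for each of the 12 mice. Moesin takes 46.9% to 53.7% in every mouse, and DKO mouse 886 has the highest radixin share among DKO mice, 39.5%.

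The scaffold Slc9a3r1 (ENSMUSG00000020733, chromosome 11, 115163341 to 115181181, plus strand) showed the largest difference of the 10. It encodes EBP50, also called NHERF1, which binds active ERM proteins and holds membrane proteins by its PDZ domains. It ranged from 65.1 to 99.4 CPM in Nf2 mice (median 71.0) and from 49.7 to 71.7 CPM in DKO mice (median 61.1). All 6 DKO mice were below the mean of Nf2 mice, yet the ranges overlapped between 65.1 and 71.7 CPM. Means were 74.5 ± 12.5 and 61.4 ± 7.43 CPM (SD, n = 6 each). The log2 fold change was -0.30 ± 0.11, with a 95% interval of -0.54 to -0.06, an unadjusted p of 0.0195 and an adjusted p of 0.223 by edgeR. On the log2(CPM + 4) scale used by the study, the difference of -0.26 gave an unadjusted p of 0.0238 in an exact two-sided permutation of the genotype labels (924 splits, smallest possible p 0.00216). A smaller edgeR p than that of Slc9a3r1 was found for 8.77% of all tested genes. Leaving out mouse 649, in which the gene was highest, gave the smallest log2 fold change of the 13 fits that left out 1 mouse or mice 649 and 887 together, -0.19, and the unadjusted p stayed under 0.05 in 13 of 13. These fits share most of their mice and are not independent. By edgeR the unadjusted p of Slc9a3r1 was under 0.05 in males alone and not in females alone. Without mouse 886 its exact permutation p was above 0.05.

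Marker lists of other cells also differed between the genotypes, some lower in DKO mice, as Slc9a3r1 was, and others higher. The 12 macrophage genes summed to 236 to 350.4 CPM in Nf2 mice and 200.4 to 260.0 CPM in DKO mice. All 12 had fold changes below 0 (49.0% of all genes did), of which 1 (C1qb, a complement component) passed edgeR's adjusted test (0.94% of all genes), 4 passed by DESeq2 (4.54%) and 8 had an unadjusted p under 0.05 by edgeR (14.9%). None was at 0 in any mouse. Other marker lists differed between the genotypes as well, with no gene past edgeR's adjusted threshold. All 14 skeletal muscle genes had fold changes below 0 (median -2.14 on the log2 scale). All 10 genes of meninges and perineurium had fold changes above 0 (median 0.80), with sums of 350.0 to 591 CPM in Nf2 mice and 465 to 1991 CPM in DKO mice. So had 10 of 11 endothelial genes (median 0.18, sums of 174 to 231 and 205 to 323 CPM) and 7 of 7 B and plasma cell genes (median 0.80, sums of 7.91 to 70.4 and 12.1 to 81.4 CPM). Fold changes were also above 0 for all tested genes of spinal cord glia (7), erythroid cells (6) and neutrophils (7). They were below 0 for all 5 tested adipocyte genes and 6 of 7 T and NK cell genes. The part of these lists in the difference was not tested, beyond the muscle covariate given here. With the mean macrophage marker level of each mouse as a covariate, the log2 fold change of Slc9a3r1 was -0.03 ± 0.17 (adjusted p = 0.996), in a fit that called 0 of 18295 genes. At an unadjusted p under 0.05 that fit listed 868 genes. With the skeletal muscle level as a covariate it was -0.38 ± 0.13 (adjusted p = 0.207). The part of macrophages in the difference was not tested. In bulk tissue, fewer cells of a type and less RNA per cell cannot be told apart.

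Slc9a3r2 (ENSMUSG00000002504, chromosome 17, 24639286 to 24650327, minus strand), the sister scaffold NHERF2, varied little. It ranged from 109 to 125 CPM in Nf2 mice (median 115) and from 106 to 118 CPM in DKO mice (median 113), with the ranges largely shared. Slc9a3r2 had a log2 fold change of -0.07 ± 0.05, with an interval of -0.17 to 0.04 (adjusted p = 0.578).

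Cd44 (ENSMUSG00000005087, chromosome 2, 102811141 to 102901665, minus strand) encodes the hyaluronan receptor whose cytoplasmic tail binds ERM proteins and merlin. It ranged from 131 to 182 CPM in Nf2 mice (median 147) and from 116 to 178 CPM in DKO mice (median 132). The highest mouse of each genotype, 649 and 887, stood clear of the others, and the ranges overlapped. For Cd44 the log2 fold change was -0.13 ± 0.11, with an interval of -0.37 to 0.11 (adjusted p = 0.647). Without mice 649 and 887, a pair chosen after the data had been seen for their mitochondrial share, it was -0.16 ± 0.07 (unadjusted p = 0.0321, adjusted p = 0.230). In that fit 3268 of all 18371 genes had an unadjusted p under 0.05 by edgeR.

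The remaining 3 members act away from the membrane. Smarcb1 (ENSMUSG00000000902, chromosome 10, 75896769 to 75921617, minus strand) encodes a core subunit of the SWI/SNF chromatin remodelling complex, and germline variants of this gene and of LZTR1 predispose to schwannomatosis. It ranged from 44.0 to 62.4 CPM in Nf2 mice (median 47.3) and from 40.5 to 50.9 CPM in DKO mice (median 45.1), the highest value again being that of mouse 649. Smarcb1 had a log2 fold change of -0.16 ± 0.10, with an interval of -0.36 to 0.05 (adjusted p = 0.491). Lztr1 (ENSMUSG00000022761, chromosome 16, 17508688 to 17526333, plus strand) encodes an adaptor of the CUL3 ubiquitin ligase that directs Ras family proteins to degradation. It ranged from 170.0 to 204 CPM in Nf2 mice (median 189) and from 175 to 201 CPM in DKO mice (median 196), and 5 of 6 DKO mice were above the Nf2 mean. Its log2 fold change was 0.03 ± 0.05, with an interval of -0.08 to 0.15 (adjusted p = 0.832). Dcaf1 (ENSMUSG00000040325, chromosome 9, 106821874 to 106880992, plus strand) encodes the substrate receptor of a CUL4 ligase that merlin binds and inhibits in the nucleus. It ranged from 37.6 to 42.0 CPM in Nf2 mice (median 39.3) and from 38.9 to 43.0 CPM in DKO mice (median 40.4). Its log2 fold change was 0.03 ± 0.05, with an interval of -0.08 to 0.14 (adjusted p = 0.850). Dcaf1 overlaps Manf and Rbm15b on the opposite strand.

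No member differed by labelled sex at the adjusted threshold. With genotype in the model, 0 of 10 members differed between males and females by edgeR's adjusted p (0.0164% of all genes did), and 0 of 10 at an unadjusted p under 0.05 (2.91% of all genes). For Msn, which lies on the X chromosome, the difference of males from females was 0.03 ± 0.05 on the log2 scale. An interaction term asked whether the genotypes differed by another amount in males than in females, and 0 of 10 members passed it (0.0109% of all genes). Cd44 alone had an unadjusted p under 0.05 (4.78% of all genes did). In males, Cd44 ranged from 143 to 182 CPM in Nf2 mice and from 116 to 127 CPM in DKO mice, without overlap. These were 3 mice per genotype, mouse 702 among them, and the share of all genes without overlap in males was not computed. In females Cd44 ranged from 131 to 149 CPM in Nf2 mice and from 137 to 178 CPM in DKO mice, with overlap and in the opposite direction of means. DKO minus Nf2, the log2 fold change was -0.41 ± 0.12 in males (adjusted p = 0.362) and 0.13 ± 0.12 in females (adjusted p = 0.866). Their difference was -0.55 ± 0.17, with an unadjusted p of 0.00759 and an adjusted p of 0.920 by edgeR's interaction test. Without mouse 702, 0 of 10 members differed between the sexes by the adjusted p (0.054% of all genes) or at an unadjusted p under 0.05, the difference for Msn was 0.03 ± 0.06, and 0 of 10 members passed the interaction test (0.0108%). Cd44 then had -0.45 ± 0.14 in males (adjusted p = 0.553). Its difference between the sexes' fold changes was -0.59 ± 0.19 without that mouse (adjusted p = 0.772), and it was smallest without DKO mouse 887, at -0.41.

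The pair of mice with the highest mitochondrial share, Nf2 mouse 649 and DKO mouse 887, lay at the edge of their genotypes for several members. Each had the lowest Nf2 level of its genotype, 109 and 99.2 CPM, and the highest Cd44 level, 182 and 178 CPM. Both also had the lowest Lztr1 level of their genotype, 170.0 and 175 CPM, and the highest Smarcb1 level, 62.4 and 50.9 CPM. Slc9a3r1 was highest among Nf2 mice in mouse 649, whereas mouse 887, with 66.3 CPM, was not the highest DKO mouse. What sets these libraries apart was not tested. Without both mice, the log2 fold change of Nf2 was -0.14 ± 0.06 (unadjusted p = 0.0354, adjusted p = 0.241), that of Slc9a3r1 was -0.23 ± 0.08 (adjusted p = 0.175) and 0 of 10 members passed (1.71% of all genes did). At an unadjusted p under 0.05 edgeR listed 3 members in that fit, Cd44, Nf2 and Slc9a3r1, beside 3268 of all 18371 genes.

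**Figure D4:**
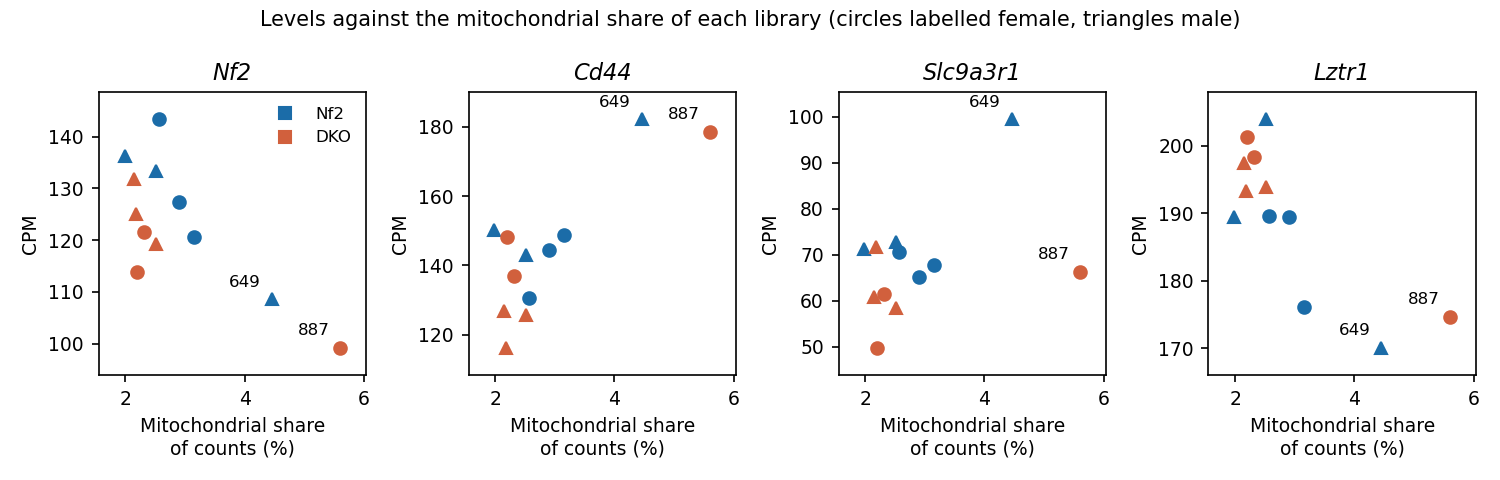
CPM of Nf2, Cd44, Slc9a3r1 and Lztr1 in each mouse against the percentage of its counts taken by mitochondrial genes. Blue marks Nf2 and orange DKO mice, circles mice labelled female and triangles male. Mice 649 (4.45%) and 887 (5.60%) lie to the right of the others, low for Nf2 and Lztr1 and high for Cd44.

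The genes whose levels followed those of Nf2, Msn and Cd44 most closely from mouse to mouse were listed as a description. Likeness was the Pearson correlation of log2 CPM with the mean of each genotype subtracted, over 12 mice and among 12474 genes with a mean of at least 5 CPM. The genes named are by construction the highest of that many, so no p-value is given. Both genes of each pair were read in the same libraries, and library depth and mitochondrial share varied from mouse to mouse. Closest to Nf2 were Tln1 (r = 0.979, Spearman's coefficient 0.972), which encodes talin, the linker between integrins and actin, followed by Smad3 (r = 0.975), Tmed10 (r = 0.971) and Qser1 (r = 0.971). Without mice 887 and 649, the farthest from the median of Nf2, these 4 values ran from 0.939 to 0.977. Closest to Msn were Apol6 (r = 0.907), Aen (r = 0.899) and Fam120a (r = 0.896), which fell to 0.822, 0.781 and 0.702 without mice 886 and 917. Closest to Cd44 were Ugcg (r = 0.976), which encodes the enzyme that makes glucosylceramide, and Frmd4b (r = 0.954), with 0.939 and 0.914 without mice 887 and 649. No member was among the closest genes of another. Among the members, Lztr1 had the highest r with Nf2 over 12 mice (0.734), and Cd44 (-0.811) and Smarcb1 (-0.770) had the lowest. Without mice 887 and 649, the r of Lztr1 was 0.458, that of Cd44 -0.460 and that of Smarcb1 -0.452. Dcaf1 (0.580), Rdx (0.569) and Slc9a3r1 (0.554) were then above Lztr1, although Slc9a3r1 had -0.332 over 12 mice.

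The genes around merlin and the ERM proteins were examined as 8 lists of 135 genes, of which 133 were tested. Of these, 0 were higher (0.372% of all genes) and 2 were lower (0.568% of all genes) in DKO mice at the adjusted threshold, together 1.5% beside 0.94%. At an unadjusted p under 0.05 there were 25, or 18.8%, beside 14.9% of all genes, and the median log2 fold change was -0.016. The 2 that passed were Rras2 and Prkcq.

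Rras2 (ENSMUSG00000055723, chromosome 7, 114046782 to 114117781, minus strand) encodes a GTPase of the R-Ras group of the Ras family, and was the 1 of 15 genes to pass in the list of LZTR1, CUL3 and Ras genes. It ranged from 30.6 to 36.7 CPM in Nf2 mice (median 32.0) and from 19.5 to 27.5 CPM in DKO mice (median 21.9), and the genotypes did not overlap. Its log2 fold change was -0.56 ± 0.09 (adjusted p = 0.00838), and it ran from -0.63 without DKO mouse 915 to -0.52 without DKO mouse 914. The adjusted p stayed under 0.05 without any 1 mouse and with the skeletal muscle level as a covariate (0.0321), but was 0.842 with the macrophage level as a covariate, where the log2 fold change was -0.50. The median of its list was -0.038.

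Prkcq (ENSMUSG00000026778, chromosome 2, 11172108 to 11301222, plus strand) encodes protein kinase C theta, one of the kinases able to phosphorylate ERM proteins, and was the 1 of 16 genes to pass in the list of ERM kinases, phosphatases and small GTPase regulators. It ranged from 174 to 249 CPM in Nf2 mice (median 217) and from 94.1 to 162 CPM in DKO mice (median 146), without overlap. Its log2 fold change was -0.65 ± 0.13 (adjusted p = 0.0310). The adjusted p was above 0.05 when Nf2 mouse 702, 884, 918 or 1049 or DKO mouse 885 or 917 was left out, with values from 0.0593 to 0.0849 and log2 fold changes from -0.67 to -0.60. With the skeletal muscle level as a covariate the log2 fold change was -0.64 (adjusted p = 0.0892), and with the macrophage level it was -0.22 (adjusted p = 0.988). The gene is also known from T cells and skeletal muscle. The 7 markers of T and NK cells summed to 3.12 to 7.84 CPM in Nf2 mice and 3.36 to 6.00 CPM in DKO mice. Which cells the Prkcq counts came from was not tested. In the same list Arhgdia, an inhibitor of small GTPases, had a log2 fold change of -0.20 ± 0.05 (adjusted p = 0.0810), and the median of the list was 0.015.

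The other 6 lists held no gene past the adjusted threshold by edgeR. In the list of merlin and Hippo partners, 0 of 20 passed and 5 had an unadjusted p under 0.05 (14.9% of all genes did). Nearest was Pak3, a p21-activated kinase, at 0.30 ± 0.07 (adjusted p = 0.0733). Pak3 ranged from 57.1 to 64.3 CPM in Nf2 mice and from 66.1 to 86.5 CPM in DKO mice, without overlap. Among other FERM proteins of the 4.1 family 0 of 11 passed, the nearest being Frmd5 at -0.51 ± 0.12 (adjusted p = 0.0675), and among CD44 and hyaluronan genes 0 of 20 passed, the nearest being Tmem2, a cell-surface hyaluronidase, at 0.23 ± 0.06 (adjusted p = 0.112). Of the ERM membrane partners 0 of 14 passed. The partners of the remaining members were similar, with 0 of 27 SWI/SNF subunits (nearest Phf10 at -0.20 ± 0.06, adjusted p = 0.138) and 0 of 11 genes of DCAF1 ligases (nearest Cand1 at 0.16 ± 0.10, adjusted p = 0.503). The unadjusted counts were 1 of 14 for the ERM membrane partners, 4 of 11 for the FERM proteins and 6 of 20 for CD44 and hyaluronan. They were 4 of 27 for SWI/SNF and 0 of 11 for the DCAF1 ligases, all beside 14.9% of all genes. By DESeq2, genes past the adjusted threshold numbered 2 among merlin and Hippo partners, 2 among the ERM regulators, 2 among the FERM proteins, 3 among CD44 and hyaluronan genes, 1 among SWI/SNF subunits and 1 in the list of Ras genes, and 0 in the remaining 2 lists. That was 8.27% of the 133 genes tested, beside 4.54% of all genes by DESeq2.

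**Figure D5:**
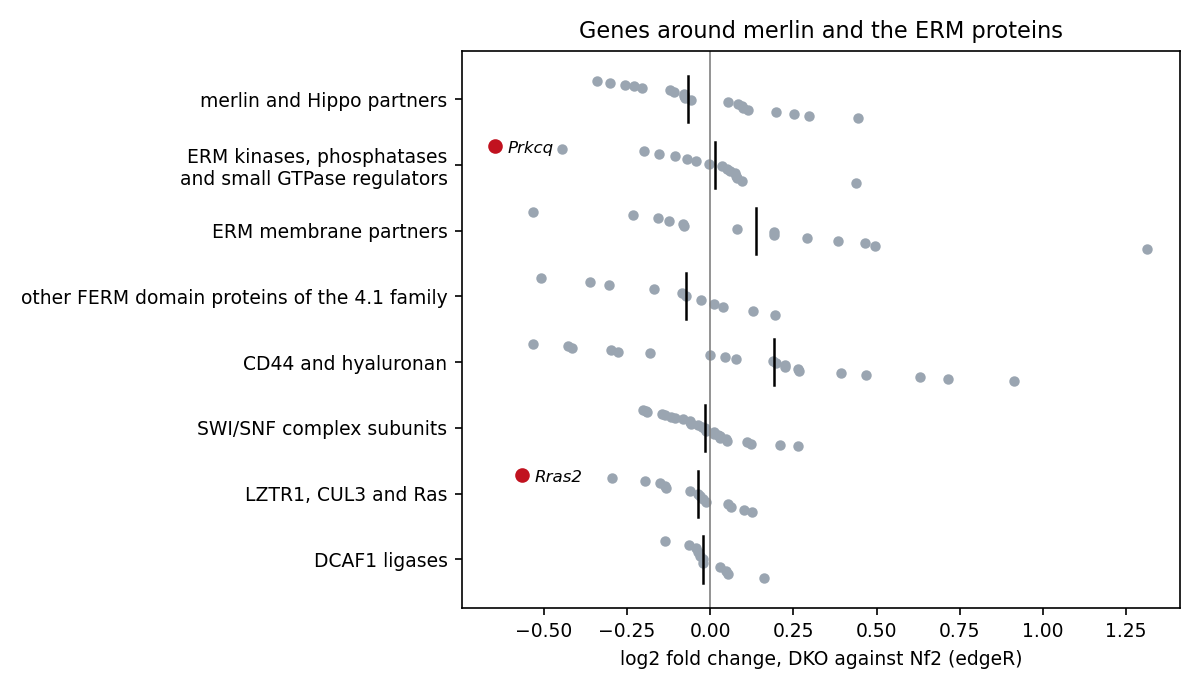
Log2 fold change of DKO against Nf2 mice by edgeR for each tested gene of the 8 lists. Grey points are genes that did not pass the adjusted threshold, red points the 2 that did (Prkcq and Rras2), and vertical bars the median of each list. The list medians lie between -0.074 and 0.19, and single genes spread to both sides of 0 in every list.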

How the data were processed

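RNA was extracted from DRG with the Qiagen RNeasy Plus Mini kit and DNase, and poly(A) libraries were made with NEBNext Ultra II by a commercial provider. The submitters' processing notes name Trimmomatic 0.36, STAR 2.5.2b, featureCounts with Subread 1.5.2 and GRCm38. The strand setting and the treatment of reads with several matches are not given in the sources used here. The deposited values are raw counts that the authors did not normalize, with a whole number of reads for each Ensembl gene in each of the 12 libraries.

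From these counts, CPM were computed from library totals. Genotypes were compared with edgeR 4.0.16 in R 4.3.3 (filterByExpr, TMM scaling, quasi-likelihood F test, all 12 mice, Benjamini-Hochberg adjustment over 18295 genes, threshold 0.05). Log2 fold changes are DKO minus Nf2. Males and females were compared with genotype in the model, and an interaction term was tested. The unit of the study, log2(CPM + 4), was tested by two-sided exact permutation. Alternatives were DESeq2 1.42.0, limma 3.58.1 voom, other scaling and filters, sex, skeletal muscle or macrophage level as covariates, each sex alone, leaving out each mouse, a pseudocount of 1 and other gene lengths. Males without mouse 702, all mice without 649 and 887, and levels per principal coding transcript were added after the data had been seen. Positions and sequences came from GENCODE M21, which held 99.3% of the 49315 gene identifiers. Library totals were 21129191 to 41250329 counts. Counting error depends on the count of each gene, such as 867 to 1641 per mouse for Dcaf1. It was not separated from the spread between mice. No pair of libraries agreed within sampling noise (66 pairs, chi-square per degree of freedom 9.73 to 81.2). The fitting was tested on simulated data.

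The 10 members, the gene lists and the tests were chosen with earlier results of these data known. Genes named are the members, Ptk2, sex markers, in each list up to 4 genes past the threshold or otherwise the 1 with the smallest p, and the 5, 3 and 3 genes most like Nf2, Msn and Cd44. Some genes that this rule names are not reported here. Arhgdia and C1qb were named after their values were seen.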

Additional observations from a re-analysis of the deposited data

Results flagged for a closer look

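Groups of 6 mice were searched for a single value standing apart by Dixon's test, for the CPM of the 10 members and the derived ERM measures. Of 28 groups examined 3 held such a value, and chance alone marks about 1 in 20 groups. Slc9a3r1 in Nf2 mice had 99.4 CPM in mouse 649, and the nearest of the other Nf2 mice had 72.8 CPM. Lztr1 in DKO mice had 175 CPM in mouse 887, the nearest of the other DKO mice having 193 CPM. The share of radixin in the ERM level of DKO mice was 39.5% in mouse 886 and 34.2% in the nearest other mouse.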

How the results depend on the processing

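The count of members past the threshold was 0 in all 26 fits of the genotype comparison. The number of all genes changed between genotypes, 172, was 831 by DESeq2, 521 by limma voom, 57 in females, 2 in males, 9 in males without mouse 702, 314 without mice 649 and 887, 79 with the skeletal muscle level and 0 with the macrophage level as a covariate (edgeR, 868 at an unadjusted p under 0.05), and 81 to 217 without 1 mouse. The count between the sexes, 3, was 5 without a count filter, 5 by DESeq2 and 0 to 10 without 1 mouse (edgeR, 410 to 1588 at an unadjusted p under 0.05), the 10 being without mouse 702. The interaction count, 2, was 6 without a filter, 20 by DESeq2 and 2 to 6 without 1 mouse. Directions of members turned as follows between genotypes, none past the threshold on either side. Nf2 had a log2 fold change of 0.0049 in males without mouse 702 and 0.00056 with the macrophage level as a covariate. Ezr had -0.079 and Slc9a3r2 0.019 in males without mouse 702, and Cd44 had 0.13 and Dcaf1 -0.016 in females. Between the sexes 7 members turned in at least 1 of 15 other fits, and in the interaction 5 did, with 0 calls. Without 1 mouse, Cd44 ran from -0.17 to 0.0094 between the sexes (above 0 without mouse 887), and the interaction of Msn ran from -0.0016 (without mouse 886) to 0.094. On log2(CPM + 4), 1 member had an exact p under 0.05, and 0 to 3 did without 1 mouse. The share of all genes under that exact p was not computed, so these counts have no background. By edgeR 14.9% of all genes had an unadjusted p under 0.05. Nf2 (-0.16, p = 0.0498) and Ezr (0.13, p = 0.0303) joined Slc9a3r1 without mouse 649, Cd44 (-0.19, p = 0.0498) without mouse 887, and Slc9a3r1 itself had p = 0.0541 without mouse 886, all by exact permutation. With the longest transcript as the length, the ERM shares in Nf2 and DKO mice were 61.6% and 61.9% for moesin, 28.2% and 27.0% for radixin and 10.2% and 11.1% for ezrin. By DESeq2 the genes past the threshold were 2 for merlin and Hippo partners, 2 for ERM regulators, 2 for FERM proteins, 3 for CD44 and hyaluronan and 1 for SWI/SNF. Without 1 mouse, the count was 0 to 1 for ERM regulators and 0 to 1 for FERM proteins. Where a count or direction moved, the cause was not tested. No paired analysis was possible because the genotypes share no mouse numbers. Changes of the members smaller than their intervals cannot be seen with 6 mice per genotype.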
